A study of Homo sapiens with 12 samples.

Results

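Histone genes were followed in poly(A)-selected RNA of HCT116, a human colon cancer cell line, after depletion of Mina53, the product of RIOX2, a JmjC-domain oxygenase of the nucleus and nucleolus. Of the 36615 symbols in the expression table, 89 matched current or older histone gene names, and 17 pseudogenes and 2 noncoding RNAs among them were set aside. The remaining 70 genes comprised 57 replication-dependent genes, 12 variants and H3-2, which has no entry in the RefSeq table used here and stayed unclassified. A gene counted as replication-dependent when RefSeq lists an older symbol of the HIST1 to HIST4 clusters for it, which gave 45 genes in cluster 1, 11 in cluster 2 and 1 in cluster 3.

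The libraries formed 4 groups of 3: p53-/- HCT116 cells depleted of Mina53 (KD), p53-/- HCT116 cells with a scrambled control (SCR), p53+/+ HCT116 cells depleted of Mina53, and p53+/+ HCT116 cells with a scrambled control. The comparisons ask how the depletion changed these genes in each line, whether the change differed between the lines, and how the lines differed without depletion. The sources used here name neither the reagent of the depletion, nor the time of harvest, nor the origin of the p53-/- line, nor whether libraries of a group are separate cultures. What the p-values weigh is thus the variation among these libraries, which may be technical. Levels are FPKM, fragment numbers scaled for transcript length and library size, which sum to between 348822 and 372821 per library. Because no counts accompany them, the depth is unknown. RIOX2 was at 2.11, 2.21 and 1.75 FPKM in p53-/- KD cells, against 9.31, 8.89 and 9.07 FPKM in p53-/- SCR cells, and at 3.04, 2.63 and 2.48 FPKM in p53+/+ KD cells, against 7.44, 7.27 and 7.77 FPKM in p53+/+ SCR cells. The listed markers of colon epithelium summed to between 1861 and 2397 FPKM per library, led by KRT8, KRT18 and KRT19. Of the same list, VIL1, CDH17 and GPA33 averaged under 0.1 FPKM in every group. Markers of leukocytes summed to at most 9.69 FPKM, of fibroblasts to at most 12.2, of erythroid cells to at most 3.49 and of endothelium to at most 0.347.

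Replication-dependent histone genes supply the bulk H1, H2A, H2B, H3 and H4 that package DNA while it is copied in S phase. Their mRNAs normally end in a conserved stem-loop in place of a poly(A) tail: the stem-loop is bound by SLBP, and the U7 snRNP, with LSM10 and LSM11, directs the cut behind it. NPAT, activated by cyclin E with CDK2, turns the clustered genes on. Variants such as H2AZ1, H3-3A and H3-3B are made throughout the cell cycle from genes outside the clusters and carry poly(A) tails. Selection on oligo(dT) therefore keeps variant mRNAs, and of the replication-dependent mRNAs only those with a tail. Tailed transcripts of some replication-dependent genes, including H2BC12, H2BC5, H2AC6 and H1-2, are known from differentiating cells.

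The stem-loop was searched in GENCODE v29 transcripts (GRCh38) as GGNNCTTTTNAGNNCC, in the sense and the antisense orientation. Of 58676 genes, 0.136% held it in the sense orientation and 0.065% in the antisense. Among the histone genes it was found in the sense orientation in 26 of 57 replication-dependent genes and in 1 of 12 variants, H2AX. Many models of the replication-dependent genes hold little more than the coding sequence, so the other 31 genes say only that these letters are not in the model. Of the 57 replication-dependent genes, 17 had a model that ran on for 100 bases or more past the stem-loop, and 20 had a poly(A) signal in the last 50 bases of a model, against 11 of 12 variants. The following 4 sites are shown because they belong to genes on which the results turn, with the 16 bases of the match in capitals and 5 bases to each side, 5′ to 3′ on the strand of the gene.
H2AC6: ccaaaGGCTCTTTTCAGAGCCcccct
H2BC5: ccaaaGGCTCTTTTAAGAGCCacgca
H4C14: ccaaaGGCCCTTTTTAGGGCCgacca
H2AX: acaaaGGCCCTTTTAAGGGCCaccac
The H2AC6 site lies at chr6:26124664-26124689 on the plus strand and its model continues for 1114 bases. The H2BC5 site lies at chr6:26158582-26158607 on the plus strand, 39 bases from the end of its model. The H4C14 site lies at chr1:149833027-149833052 on the plus strand, 194 bases from the end. The H2AX site lies at chr11:119094893-119094918 on the minus strand, 821 bases from the end of the model. These distances are for the shortest model that holds the site. The longest run past it was 1128 bases for H2AC6, 1167 for H4C14 and 1044 for H2AX. H2BC5 has 2 models, of which 1 holds the site and 2 have a poly(A) signal in the last 50 bases. The match differs between these genes within the stem and at the last base of the loop.

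Promoters were read from RefSeq (GRCh38.p14) as 250 bases before to 50 bases after each gene's start, for 52 replication-dependent genes and 10 variants. The octamer ATTTGCAT, searched on both strands, is bound by the factors POU2F1 and POU2F2 and is best known from H2B promoters. It was present in 10 of 13 replication-dependent H2B promoters, 11 of 15 H2A, 1 of 10 H3, 0 of 10 H4 and 0 of 4 H1 promoters, in 1 of 10 variant promoters, and in 1.8% of 27305 promoters of all genes. CCAAT, on both strands, was present in 44 of 52 replication-dependent promoters and in 35.7% of all. Shown here are the octamers of the leading H2B gene, of the leading H2A gene and of the H2B gene with the largest difference between the lines, in capitals within 28 bases on the strand of the gene, where ATGCAAAT is the octamer read from the other strand.
H2BC12: tcttcaccttATTTGCATgagaggtcct
H2AC6: gggcagagctATGCAAATgaggtatgaa
H2BC17: cttcctcttaATGCAAATgagctttctg
The H2BC12 window lies at chr6:27146887-27146914 on the minus strand, with the octamer at positions -46 to -39 from the start. The H2AC6 window lies at chr6:26124032-26124059 on the plus strand, with the octamer at -130 to -123. The H2BC17 window lies at chr6:27893266-27893293 on the plus strand, with the octamer at -149 to -142. Such a match is a description of the sequence and was not tested for binding.

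Summed over the 57 replication-dependent genes, the level in the poly(A) RNA was higher in Mina53-depleted cells of both lines. The sum was 138, 134 and 134 FPKM in p53-/- KD cells, against 65.3, 71.6 and 69.3 FPKM in p53-/- SCR cells, a ratio of means of 1.97. In the other line it was 198, 197 and 199.6 FPKM in p53+/+ KD cells, against 117, 115 and 116 FPKM in p53+/+ SCR cells, a ratio of 1.71. The libraries of KD and SCR cells did not overlap in either line. The 12 variants summed the other way, with 1072 ± 6.5 FPKM in p53-/- KD cells and 1367 ± 17 FPKM in p53-/- SCR cells, and with 960 ± 8.0 FPKM in p53+/+ KD cells and 1432 ± 4.4 FPKM in p53+/+ SCR cells (SD, n = 3 each). Replication-dependent genes thus made up 11.2% of all histone FPKM in p53-/- KD cells and 4.79% in p53-/- SCR cells, and 17.1% in p53+/+ KD cells and 7.50% in p53+/+ SCR cells. With 3 libraries a group an exact permutation test cannot go below a p of 0.1, so the sums carry no test. In bulk RNA a change in the number of cells in S phase and a change in RNA per cell cannot be told apart. RNAs that carry no poly(A) tail had ratios of summed FPKM, KD over SCR, of 1.63 in p53-/- cells and 0.917 in p53+/+ cells over the whole list. Without RN7SL1 and RN7SL2 these ratios were 1.51 and 2.53, and the part of such RNAs in the rise of the replication-dependent sum was not tested.

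**Figure D1:**
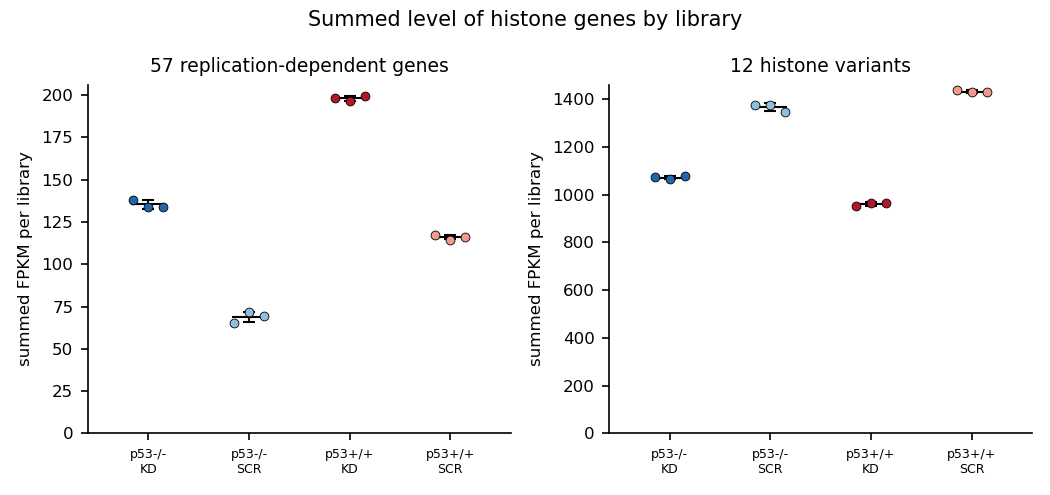
Summed FPKM (vertical axes, from 0) of the 57 replication-dependent genes and of the 12 variants in each library, by group. Points are libraries, and the bar and whiskers are the mean and SD of 3. The replication-dependent sums lie higher in KD than in SCR libraries of the same line, and the variant sums lower.

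A few genes held most of the replication-dependent sum. H2BC12, H2BC5, H1-2, H2AC6, H2AC18 and H2AC19 together made up 62.1% of the replication-dependent sum in p53-/- KD cells and 57.3% in p53-/- SCR cells, and 81.4% in p53+/+ KD cells and 73.7% in p53+/+ SCR cells. Of the replication-dependent genes, 39 averaged under 1 FPKM over all libraries, 14 averaged 1 to 10 and 4 averaged 10 or more, while 9 of 12 variants averaged 10 or more. No histone gene was at 0 in all 12 libraries. The number of replication-dependent genes at 1 FPKM or more was 23 to 24 per library in p53-/- KD cells and 14 to 16 in p53-/- SCR cells, and 18 to 19 in p53+/+ KD cells and 16 in every library of p53+/+ SCR cells. Without H2BC12 and H2BC5 the replication-dependent sum was 94.2 ± 1.4 FPKM in p53-/- KD cells and 48.2 ± 4.0 FPKM in p53-/- SCR cells, a ratio of 1.95, and 95.5 ± 0.50 FPKM in p53+/+ KD cells and 67.5 ± 2.8 FPKM in p53+/+ SCR cells, a ratio of 1.41 (SD, n = 3 each).

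The test across genes used limma on log2(FPKM + 1) over 13728 genes with at least 1 FPKM in at least 3 libraries, with a Benjamini-Hochberg adjusted p under 0.05 as the threshold. The pseudocount of 1 shrinks the log2 fold changes of genes at low FPKM. Among single genes, ratios of means are also given for H3C6 and H2BC17 only, and other low genes have the shrunken value alone. The test took in 24 replication-dependent genes and 10 variants. Of the 24, 14 reached 1 FPKM in some library of all 4 groups, and 5 reached it only in KD libraries. Those 5 could pass the filter only by being high after depletion. H2BC15 and H3C4 reached 1 FPKM in every KD library but in only 1 SCR library each, so they too needed KD libraries to pass. So did H2AC7 and H2AC14, which reached it in 1 and 2 SCR libraries. The counts below describe the genes tested, not all 57.

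In p53-/- cells, 18 of the 24 replication-dependent genes tested rose on depletion and 0 fell, where 58.8% of all genes tested changed, 28.9% rising and 29.9% falling. Their median log2 fold change was 0.62, against -0.003 over all genes tested. In p53+/+ cells 13 rose and 1 fell, where 60.7% of all genes tested changed, 28.5% rising and 32.2% falling, and the median was 0.35, against -0.02 over all genes. The KD libraries lay wholly above the SCR libraries for 18 of the 24 genes and wholly below for 0 in p53-/- cells, against 31.1% and 32% of all genes tested, and for 12 and 1 in p53+/+ cells, against 31.3% and 35%. Of the 14 genes that reached 1 FPKM in every group, 10 rose in p53-/- cells and 8 rose and 1 fell in p53+/+ cells. Crossing both lines, 12 genes rose in both, 6 passed as higher in p53-/- cells alone, 1 (H3C10) in p53+/+ cells alone, 1 (H2AC20) fell in p53+/+ cells alone, and 4 (H2AC7, H2AC11, H2AC14 and H2AC17) passed in neither. Among the 12 are the near-identical copies H2AC18 and H2AC19, H3C14 and H3C15, and H4C14 and H4C15. Among the 6, H4C11 and H4C12 share most of their sequence, so such counts are of genes and not of separate measurements. Taken over all 57 genes, the mean was higher in KD than in SCR cells for 45 genes and lower for 11 in p53-/- cells, and higher for 33 and lower for 23 in p53+/+ cells.

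H2BC12, which codes an H2B of cluster 1, was the most abundant replication-dependent transcript. It was at 31.8, 30.6 and 30.96 FPKM in p53-/- KD cells, against 16.4, 14.9 and 14.3 FPKM in p53-/- SCR cells, and at 70.0, 68.5 and 69.3 FPKM in p53+/+ KD cells, against 27.1, 28.3 and 29.3 FPKM in p53+/+ SCR cells. All KD libraries lay above all SCR libraries of the same line. The log2 fold change was 0.99 ± 0.047 in p53-/- cells (SE; limma, adjusted p = 6.85e-09) and 1.27 ± 0.047 in p53+/+ cells (adjusted p = 7.94e-10). In the GENCODE model 86.3% of the 31-base words of H2BC12 recur in other genes, most of all in H2BFS, so its level depends on how such fragments were assigned. H2BC5, a second H2B of cluster 1, was at 10.9, 9.16 and 10.3 FPKM in p53-/- KD cells, against 5.33, 6.03 and 4.68 FPKM in p53-/- SCR cells, and at 32.3, 33.3 and 34.8 FPKM in p53+/+ KD cells, against 19.6, 21.03 and 20.3 FPKM in p53+/+ SCR cells. It rose in both lines without overlap, by a log2 fold change of 0.81 ± 0.075 in p53-/- cells (SE; limma, adjusted p = 2.09e-06) and 0.69 ± 0.075 in p53+/+ cells (adjusted p = 6.42e-06).

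**Figure D2:**
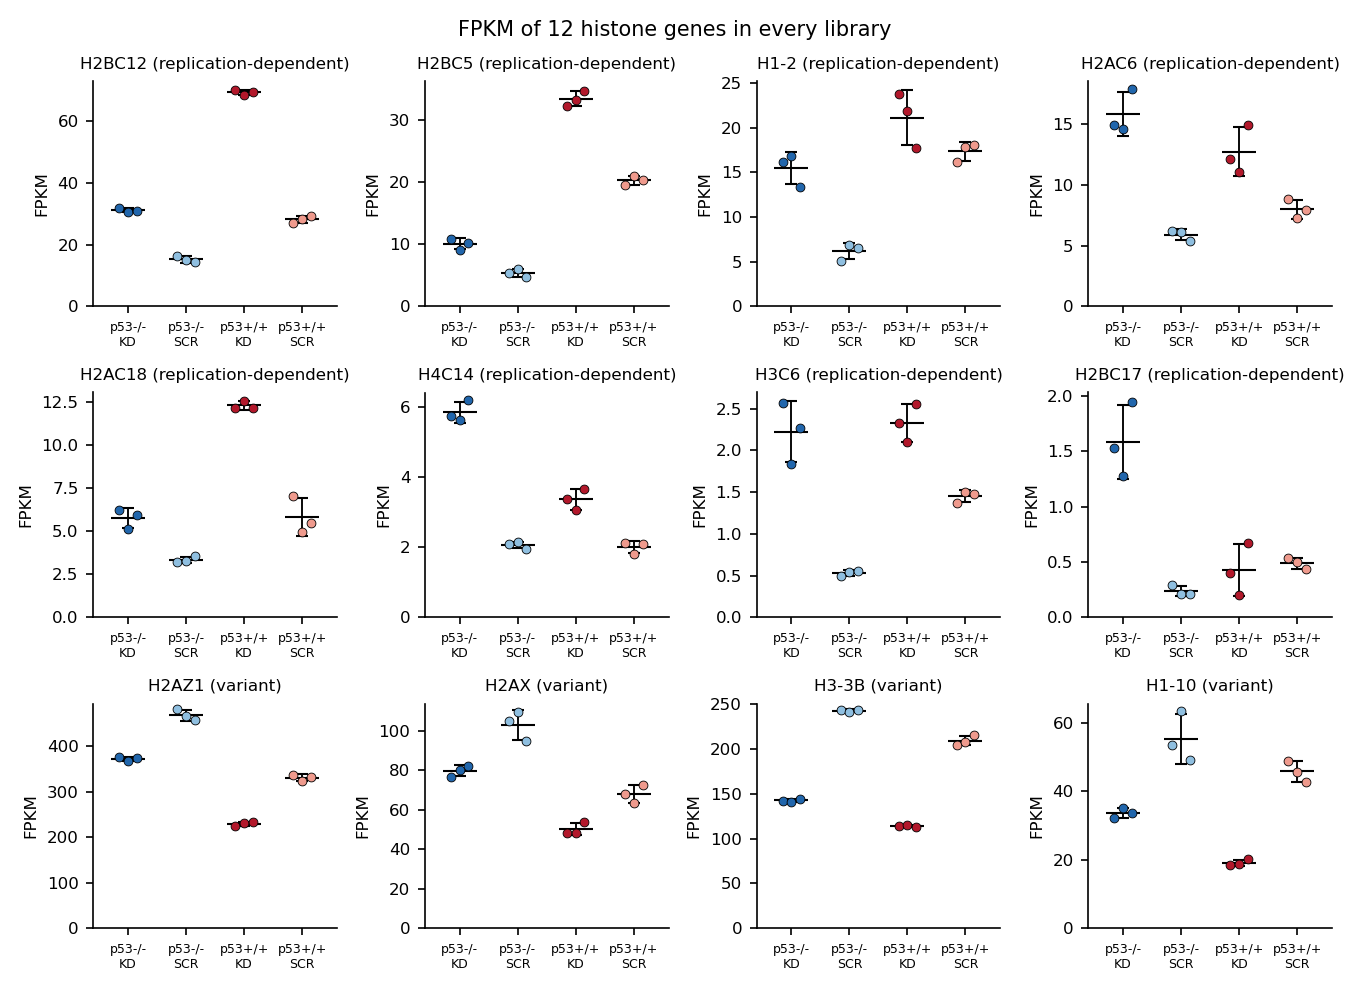
FPKM (vertical axes, each from 0) of 8 replication-dependent genes and 4 variants in every library, by group. Points are libraries, with the mean and SD of 3. H2BC12 and H2BC5 are highest in p53+/+ KD cells, H4C14 and H2BC17 are highest in p53-/- KD cells, and the variants are lower in KD than in SCR cells of the same line.

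H2AC6, the most abundant H2A of the clusters by mean FPKM, rose in both lines. It was at 15.0, 14.6 and 17.9 FPKM in p53-/- KD cells, against 6.24, 6.15 and 5.36 FPKM in p53-/- SCR cells, and at 12.2, 11.1 and 15.0 FPKM in p53+/+ KD cells, against 8.81, 7.27 and 7.94 FPKM in p53+/+ SCR cells. Neither line showed an overlap between KD and SCR libraries, and the log2 fold change was 1.28 ± 0.11 in p53-/- cells (SE; limma, adjusted p = 8.22e-07) and 0.60 ± 0.11 in p53+/+ cells (adjusted p = 0.000375). H1-2, a linker histone of cluster 1, was at 16.2, 16.8 and 13.4 FPKM in p53-/- KD cells, against 5.11, 6.83 and 6.59 FPKM in p53-/- SCR cells, and at 23.8, 21.9 and 17.7 FPKM in p53+/+ KD cells, against 16.2, 17.8 and 18.1 FPKM in p53+/+ SCR cells. Its groups were apart in p53-/- cells, where the log2 fold change was 1.20 ± 0.12 (SE; limma, adjusted p = 3.3e-06). They overlapped in p53+/+ cells, where replicate 3 of the KD cells lay among the SCR libraries, the log2 fold change was 0.26 ± 0.12 and the adjusted p of 0.074 missed the threshold. Without that library the p53+/+ value was 0.38 with a limma adjusted p of 0.0145.

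H2AC18 and H2AC19 are copies in cluster 2, on chromosome 1, whose 31-base words are shared at 100% and 97.2%, so their values cannot be taken as separate measurements. H2AC18 was at 6.24, 5.13 and 5.95 FPKM in p53-/- KD cells, against 3.22, 3.26 and 3.56 FPKM in p53-/- SCR cells, and at 12.2, 12.6 and 12.2 FPKM in p53+/+ KD cells, against 7.05, 4.93 and 5.47 FPKM in p53+/+ SCR cells. KD libraries were above SCR libraries in both lines, with a log2 fold change of 0.64 ± 0.097 in p53-/- cells (SE; limma, adjusted p = 0.000126) and 0.98 ± 0.097 in p53+/+ cells (adjusted p = 3e-06). H2AC19 gave 0.64 and 0.99. H2AC20 was chosen for mention after its values were seen, as the replication-dependent gene that fell: it was at 0.470, 0.703 and 1.29 FPKM in p53+/+ KD cells, against 1.79, 1.60 and 2.002 FPKM in p53+/+ SCR cells (limma log2 fold change -0.64 ± 0.20, SE, adjusted p = 0.0143), with a log2 fold change of 0.08 and an adjusted p of 0.76 in p53-/- cells. The p53+/+ call of H2AC20 was lost with no filter and without replicate 1 of the p53+/+ KD cells. In the GENCODE model 50.6% of its 31-base words recur in other genes. H2AC7 spread widely between libraries of a group, from 0.0938 to 3 FPKM in p53-/- KD cells, and passed in no comparison.

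All 4 of the H4 genes tested rose in p53-/- cells, and 2 of the 4 rose in p53+/+ cells, where 28.9% and 28.5% of all genes tested rose. The 2 were the copies H4C14 and H4C15. H4C11 and H4C12 also share most of their sequence, so the 4 genes are not separate measurements. H4C14 was at 5.74, 5.61 and 6.19 FPKM in p53-/- KD cells, against 2.10, 2.14 and 1.96 FPKM in p53-/- SCR cells, and at 3.36, 3.07 and 3.67 FPKM in p53+/+ KD cells, against 2.12, 1.81 and 2.10 FPKM in p53+/+ SCR cells. KD and SCR libraries stood apart in both lines, and the log2 fold change was 1.16 ± 0.068 in p53-/- cells (SE; limma, adjusted p = 4.07e-08) and 0.54 ± 0.068 in p53+/+ cells (adjusted p = 2.32e-05). H4C15, its near-identical copy, gave 1.15 and 0.41. H4C12 averaged 3.44 ± 1.2 FPKM in p53-/- KD cells and 1.87 ± 0.19 FPKM in p53-/- SCR cells, and 3.03 ± 0.38 FPKM in p53+/+ KD cells and 3.54 ± 0.27 FPKM in p53+/+ SCR cells (SD, n = 3 each), and passed as higher in p53-/- cells (limma, adjusted p = 0.00345) but not in p53+/+ cells (adjusted p = 0.318). Every 31-base word of its model recurs in other genes.

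H3 genes of the clusters were low, at most 3.47 FPKM in any library. All 5 tested rose in p53+/+ cells, where 28.5% of all genes tested rose, and 4 rose in p53-/- cells, where 28.9% rose. H3C6 was at 2.57, 1.84 and 2.27 FPKM in p53-/- KD cells, against 0.494, 0.546 and 0.554 FPKM in p53-/- SCR cells, a ratio of means of 4.18. In p53+/+ cells it was at 2.33, 2.10 and 2.56 FPKM in KD cells, against 1.37, 1.498 and 1.48 FPKM in SCR cells, a ratio of 1.61. No library of KD cells reached down to the SCR libraries, and the log2 fold change was 1.07 ± 0.085 in p53-/- cells (SE; limma, adjusted p = 5.47e-07) and 0.44 ± 0.085 in p53+/+ cells (adjusted p = 0.000693). H3C10 averaged 2.41 ± 0.53 FPKM in p53-/- KD cells and 1.97 ± 0.59 FPKM in p53-/- SCR cells, which overlapped, and 3.24 ± 0.20 FPKM in p53+/+ KD cells and 1.73 ± 0.40 FPKM in p53+/+ SCR cells (SD, n = 3 each), which did not (limma log2 fold change in p53+/+ cells 0.64, adjusted p = 0.0038). H3C4 rose by 0.53 in p53-/- cells (limma, adjusted p = 0.00327). In p53+/+ cells its call at 0.35 (adjusted p = 0.0299) was lost under 6 of 18 alternatives, with adjusted p between 0.0759 and 0.121, and all of its 31-base words recur in other genes. Those of H3C14 and H3C15 recur likewise, most of all in each other, so these genes are not separate measurements. H3C14 and H3C15 reached 1 FPKM only in KD libraries, so the filter favoured a rise for them. H3C4 reached it in every KD library but in only 1 SCR library, so the filter favoured a rise for H3C4 too.

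All 6 of the H2B genes tested rose in p53-/- cells and 3 of the 6 in p53+/+ cells, where 28.9% and 28.5% of all genes tested rose. H2BC11, H2BC17 and H2BC18 reached 1 FPKM only in KD libraries, so the filter favoured a rise for them. H2BC17 was at 1.53, 1.27 and 1.94 FPKM in p53-/- KD cells, against 0.294, 0.213 and 0.211 FPKM in p53-/- SCR cells, and at 0.4004, 0.205 and 0.671 FPKM in p53+/+ KD cells, against 0.533, 0.5 and 0.433 FPKM in p53+/+ SCR cells. It rose in p53-/- cells, by a ratio of means of 6.62 and a log2 fold change of 1.05 ± 0.12 (SE; limma, adjusted p = 1.21e-05), and its groups overlapped in p53+/+ cells (-0.08, adjusted p = 0.611). H2BC17 passed the filter through p53-/- KD libraries alone. H2BC11 was at 2.13, 2.37 and 2.64 FPKM in p53-/- KD cells, against 0.790, 0.942 and 0.688 FPKM in p53-/- SCR cells, and averaged 1.05 ± 0.29 FPKM in p53+/+ KD cells and 0.769 ± 0.14 FPKM in p53+/+ SCR cells (SD, n = 3 each). Its p53-/- libraries did not overlap (limma log2 fold change 0.90, adjusted p = 1.62e-05), and in p53+/+ cells the log2 fold change was 0.20 (adjusted p = 0.118). H2BC15 rose in both lines, by 0.65 in p53-/- cells (limma, adjusted p = 0.00175) and by 0.67 in p53+/+ cells (adjusted p = 0.00132). It reached 1 FPKM in every KD library but in only 1 SCR library, so the filter favoured a rise for it too.

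**Figure D3:**
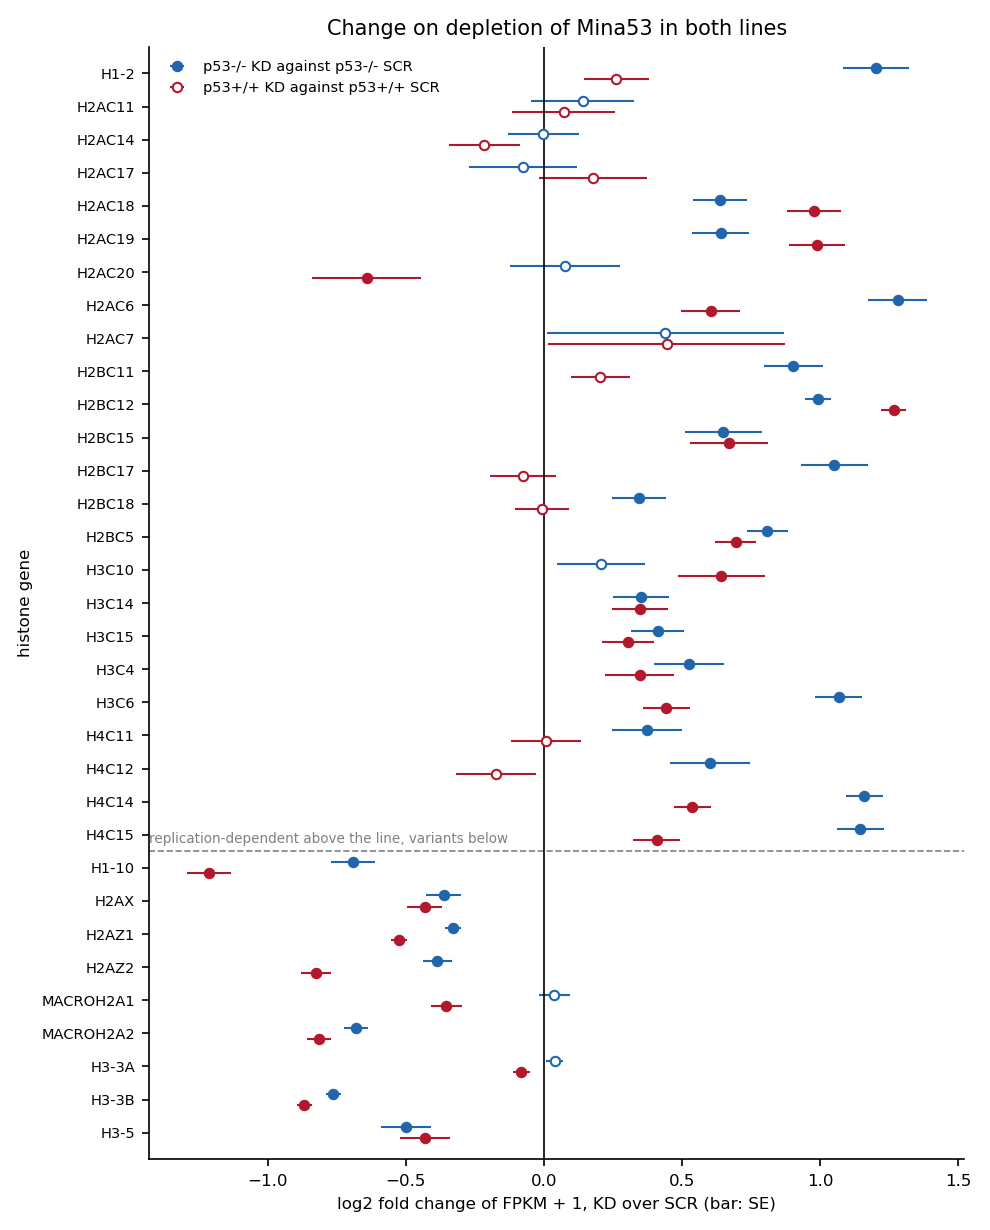
Log2 fold change of FPKM + 1 on depletion (horizontal axis, KD over SCR, bars SE) for 33 of the 34 histone genes tested, replication-dependent genes above the dashed line and variants below it. The upper point of each gene is the p53-/- line and the lower point the p53+/+ line, and filled points have a limma adjusted p under 0.05. Most replication-dependent genes lie right of 0 and the variants left of 0, apart from MACROH2A1 and H3-3A in p53-/- cells, and H3-3A in p53+/+ cells moves to 0.01 on rescaling without the mitochondrial genes.

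Among the variants, 8 of the 10 tested fell on depletion in p53-/- cells and 10 of 10 fell in p53+/+ cells, where H3-3A alone turned on rescaling without the mitochondrial genes, and 0 rose in either line. The percentages of all genes that fell stand above, with medians of -0.37 on the log2 scale in p53-/- cells and -0.61 in p53+/+ cells. The largest fall in p53-/- cells was that of H3-3B, which with H3-3A codes the replication-independent H3.3. H3-3B was at 143, 141 and 145 FPKM in p53-/- KD cells, against 244, 241 and 244 FPKM in p53-/- SCR cells, and at 114, 116 and 113 FPKM in p53+/+ KD cells, against 205, 208 and 215 FPKM in p53+/+ SCR cells. The groups were far apart in both lines, with a log2 fold change of -0.76 ± 0.026 in p53-/- cells (SE; limma, adjusted p = 6.15e-10) and -0.87 ± 0.026 in p53+/+ cells (adjusted p = 2.06e-10). H3-3A, which codes the same protein, averaged 151 ± 1.6 FPKM in p53-/- KD cells and 147 ± 4.5 FPKM in p53-/- SCR cells, and 168 ± 2.6 FPKM in p53+/+ KD cells and 178 ± 4.3 FPKM in p53+/+ SCR cells (SD, n = 3 each). Its change in p53+/+ cells, -0.08 ± 0.031 (SE; limma, adjusted p = 0.0337), turned to 0.01 (adjusted p = 0.703) on rescaling without the mitochondrial genes. In p53-/- cells H3-3A had a log2 fold change of 0.04 (limma, adjusted p = 0.3), and on that rescaling it passed as higher, at 0.09 (adjusted p = 0.0295). H3-5, the low H3.3-like gene on chromosome 12, fell by 0.50 in p53-/- cells (limma, adjusted p = 0.00051) and by 0.43 in p53+/+ cells (adjusted p = 0.00139).

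H1-10, a linker histone variant, fell in both lines. It was at 32.2, 35.3 and 33.8 FPKM in p53-/- KD cells, against 53.5, 63.4 and 49.1 FPKM in p53-/- SCR cells, and at 18.5, 18.8 and 20.2 FPKM in p53+/+ KD cells, against 49.0, 45.7 and 42.8 FPKM in p53+/+ SCR cells. It had the largest fall of any histone gene tested in p53+/+ cells, with a log2 fold change of -1.21 ± 0.080 (SE; limma, adjusted p = 9.1e-08), and -0.69 ± 0.080 in p53-/- cells (adjusted p = 1.35e-05), with no overlap in either.

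The H2A variants fell with 1 exception in p53-/- cells. H2AZ1, the main H2A.Z gene, which marks promoters, was at 375, 366 and 374 FPKM in p53-/- KD cells, against 480, 466 and 456 FPKM in p53-/- SCR cells, and at 224, 231 and 233 FPKM in p53+/+ KD cells, against 337, 322 and 333 FPKM in p53+/+ SCR cells. The groups did not overlap, and the log2 fold change was -0.33 ± 0.030 in p53-/- cells (SE; limma, adjusted p = 1.57e-06) and -0.53 ± 0.030 in p53+/+ cells (adjusted p = 2.48e-08). H2AZ2, the second H2A.Z gene, averaged 29.9 ± 0.89 FPKM in p53-/- KD cells and 39.4 ± 1.1 FPKM in p53-/- SCR cells, and 16.6 ± 1.4 FPKM in p53+/+ KD cells and 30.1 ± 0.98 FPKM in p53+/+ SCR cells (SD, n = 3 each). It fell without overlap, by 0.39 in p53-/- cells (limma, adjusted p = 6.13e-05) and by 0.82 in p53+/+ cells (adjusted p = 8.27e-08). H2AX, phosphorylated around DNA breaks and the variant whose transcripts carry the stem-loop, averaged 79.8 ± 2.8 FPKM in p53-/- KD cells and 103 ± 7.6 FPKM in p53-/- SCR cells, and 50.3 ± 3.2 FPKM in p53+/+ KD cells and 68.1 ± 4.5 FPKM in p53+/+ SCR cells (SD, n = 3 each). It fell by 0.36 in p53-/- cells (limma, adjusted p = 0.000358) and by 0.43 in p53+/+ cells (adjusted p = 8.25e-05). MACROH2A2 fell by 0.68 in p53-/- cells (limma, adjusted p = 8.42e-08) and by 0.82 in p53+/+ cells (adjusted p = 1.5e-08). MACROH2A1, which like MACROH2A2 codes an H2A with a macro domain, averaged 76.3 ± 3.9 FPKM in p53-/- KD cells and 74.3 ± 2.4 FPKM in p53-/- SCR cells, which overlapped, and 55.7 ± 3.0 FPKM in p53+/+ KD cells and 71.5 ± 4.9 FPKM in p53+/+ SCR cells (SD, n = 3 each), which did not (limma log2 fold change in p53+/+ cells -0.35, adjusted p = 0.000157).

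The difference between the lines was tested as the p53-/- change minus the p53+/+ change. It was higher for 8 of the 24 replication-dependent genes and lower for 1, where 32.9% of all genes tested passed, 16.7% with a higher and 16.2% with a lower value. The 8 were H2BC17 at 1.13 ± 0.17, H1-2 at 0.94 ± 0.17, H4C12 at 0.77 ± 0.20, H4C15 at 0.74 ± 0.12, H2BC11 at 0.70 ± 0.15, H2AC6 at 0.68 ± 0.15, H3C6 at 0.62 ± 0.12 and H4C14 at 0.62 ± 0.096 on the log2 scale (SE). The limma adjusted p of these 8 ranged from 0.000437 for H2BC17 to 0.0126 for H4C12. H2BC17 passed the filter only through p53-/- KD libraries and H2BC11 only through KD libraries, which favours a positive difference for H2BC17. Of the 14 genes at 1 FPKM in some library of every group, 5 had a higher and 1 a lower value. H2BC12 ran the other way, at -0.27 ± 0.066 (SE; limma, adjusted p = 0.00811). For H2BC5 the difference was 0.12 ± 0.11 and the adjusted p of 0.439 missed the threshold. Of the 10 variants, 7 had a positive difference and 0 a negative one, which for variants that fell means a smaller fall in p53-/- cells. It was 0.52 ± 0.11 for H1-10, 0.44 ± 0.076 for H2AZ2, 0.39 ± 0.080 for MACROH2A1 and 0.20 ± 0.042 for H2AZ1 (SE; limma, adjusted p between 0.00108 and 0.00422). The differences of H3-3A and H3-3B, 0.12 and 0.11, lay at the threshold with adjusted p of 0.0495 and 0.0486.

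Without depletion, the most abundant replication-dependent genes were lower in p53-/- cells, while over all 57 genes the mean was higher in p53-/- SCR cells for 29 and lower for 24. Of the 24 tested, 9 were lower and 1 higher in p53-/- SCR cells than in p53+/+ SCR cells, where 63.4% of all genes tested differed, 26.6% being lower and 36.7% higher. The p53-/- libraries lay wholly below the p53+/+ libraries for 11 of the 24 and wholly above for 1, against 28.9% and 38.9% of all genes tested. The median log2 fold change was -0.14, against 0.06 over all genes. H2BC5 had the largest difference, with 5.33, 6.03 and 4.68 FPKM in p53-/- SCR cells, against 19.6, 21.03 and 20.3 FPKM in p53+/+ SCR cells, a log2 fold change of -1.75 ± 0.075 (SE; limma, adjusted p = 2.09e-09). H1-2 followed at -1.36 ± 0.12 (SE; limma, adjusted p = 8.63e-07), H2BC12 at -0.86 ± 0.047 (adjusted p = 1.73e-08) and H3C6 at -0.68 ± 0.085 (adjusted p = 2.15e-05). In each of these 4 genes all p53-/- SCR libraries lay below all p53+/+ SCR libraries. H2AC14 was the gene that was higher, with 0.770, 1.19 and 1.06 FPKM in p53-/- SCR cells, against 0.619, 0.700 and 0.402 FPKM in p53+/+ SCR cells (limma, adjusted p = 0.0318), and the call was lost under 5 of 18 alternatives. It reached 1 FPKM only in p53-/- libraries and so passed the filter through the line where it was higher. Of the 14 genes at 1 FPKM in some library of every group, 0 were higher and 8 lower in p53-/- SCR cells. H4C12 and H2AC6 were also lower in p53-/- SCR cells, at -0.66 and -0.38 (limma, adjusted p = 0.00159 and 0.00801). These SCR libraries also enter the depletion comparisons. The lower SCR level and the larger p53-/- change of H1-2, H3C6, H4C12 and H2AC6 thus rest on shared values.

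Variants differed in both directions between the SCR cells. Of the 10 tested, 6 were higher and 2 lower in p53-/- cells, against 36.7% and 26.6% of all genes tested. H3-3A was lower, with a log2 fold change of -0.28 (limma, adjusted p = 7.04e-06). H2AX was higher by 0.59, H2AZ1 by 0.50, H3-5 by 0.50, H2AZ2 by 0.38, H1-10 by 0.26 and H3-3B by 0.21 (limma, adjusted p between 3.62e-08 and 0.0129). MACROH2A1 and MACROH2A2 had log2 fold changes of 0.06 and 0.01 and did not pass (limma, adjusted p = 0.397 and 0.84). The call for H1-10 was lost without replicate 3 of the p53+/+ SCR cells (limma, adjusted p = 0.0553) and without replicate 2 of the p53-/- SCR cells (adjusted p = 0.0508).

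**Figure D4:**
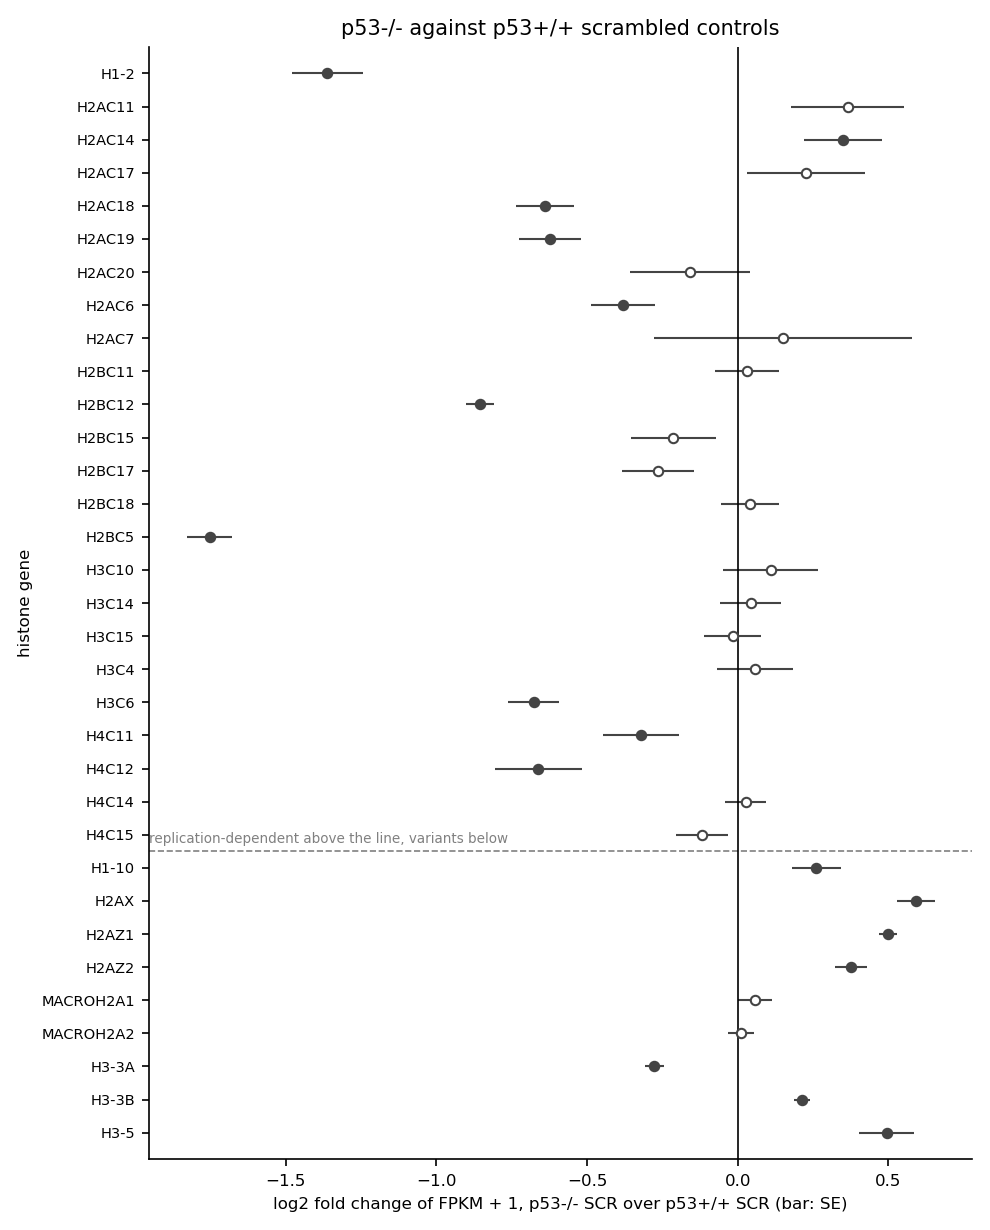
Log2 fold change of FPKM + 1 between the scrambled controls (horizontal axis, p53-/- SCR over p53+/+ SCR, bars SE) for 33 of the 34 histone genes tested, replication-dependent genes above the dashed line and variants below it. Filled points have a limma adjusted p under 0.05. H2BC5 and H1-2 lie furthest left, and 6 variants have filled points right of 0.

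Several H2A and H2B genes face each other across a shared promoter, and 7 octamers lay before more than 1 histone gene. The members of such pairs were chosen for mention after their values were seen. H2BC17 and H2AC17 share an octamer, and while H2BC17 rose in p53-/- cells, H2AC17 averaged 1.15 ± 0.33 FPKM in p53-/- KD cells and 1.25 ± 0.26 FPKM in p53-/- SCR cells (SD, n = 3 each; limma, adjusted p = 0.761). H2BC17 passed the filter through p53-/- KD libraries alone, and 87.1% of the 31-base words of H2AC17 recur in other genes. H2BC11, which passed the filter only through KD libraries, shares another octamer with H2AC11. H2AC11 averaged 2.36 ± 0.27 FPKM in p53-/- KD cells and 2.09 ± 0.63 FPKM in p53-/- SCR cells (SD, n = 3 each; limma, adjusted p = 0.541). H2AC6 is paired with H2BC4, which stayed under the filter, at 0.615 FPKM in p53-/- KD cells and 0.575 FPKM in p53-/- SCR cells, and at 0.980 FPKM in p53+/+ KD cells and 0.521 FPKM in p53+/+ SCR cells on average. H2AC20 is paired with H2BC21, also under the filter, at 0.921 FPKM in p53+/+ KD cells and 1.001 FPKM in p53+/+ SCR cells on average. Whether the genes of a pair differ in their change was not tested.

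Of the 33 replication-dependent genes under the filter, H2BC21 had the highest mean, 0.802 FPKM over all libraries. Together they summed to 11.6 ± 1.6 FPKM in p53-/- KD cells and 8.54 ± 2.1 FPKM in p53-/- SCR cells, and to 7.29 ± 0.82 FPKM in p53+/+ KD cells and 7.41 ± 0.046 FPKM in p53+/+ SCR cells (SD, n = 3 each). Their libraries did not overlap in p53-/- cells and overlapped in p53+/+ cells. Among them were the linker genes H1-4, at 0.454 FPKM over all libraries, and H1-3, at 0.0638 FPKM. H1-2 thus carried nearly the whole signal of the 4 clustered H1 genes followed here. The variants under the filter were H1-7 and H1-8, linker histones of the testis and the oocyte, at 0.0377 and 0.00188 FPKM. Of the 24 genes tested 13 had a stem-loop in their model and 15 a poly(A) signal at the end of a model, against 13 and 5 of the 33 under the filter. Of the noncoding RNAs set aside, H1-10-AS1 averaged at most 0.474 FPKM in a group and H2AZ1-DT at most 0.123 FPKM.

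Genes that make and process histone mRNAs were followed as a list of 23 factors. On depletion 10 fell, 3 rose and 10 did not pass in p53-/- cells, where 29.9% of all genes fell and 28.9% rose. In p53+/+ cells 13 fell and 4 rose, where 32.2% of all genes fell and 28.5% rose. SLBP, which binds the stem-loop, was at 24.5, 25.1 and 23.9 FPKM in p53-/- KD cells, against 36.9, 35.4 and 33.3 FPKM in p53-/- SCR cells, and at 20.9, 25.5 and 25.4 FPKM in p53+/+ KD cells, against 37.9, 36.3 and 37.2 FPKM in p53+/+ SCR cells. It fell without overlap, by 0.51 in p53-/- cells (limma, adjusted p = 3.54e-05) and by 0.62 in p53+/+ cells (adjusted p = 5.58e-06). CDK2, which with cyclin E activates NPAT, fell by 0.62 in p53-/- cells (limma, adjusted p = 1.99e-06) and by 0.79 in p53+/+ cells (adjusted p = 1.98e-07), and NELFE, a subunit of the negative elongation factor, fell by 0.92 (adjusted p = 4.33e-09) and by 0.66 (adjusted p = 5.41e-08). SYMPK, a scaffold of the cleavage complex, fell by 0.35 in p53-/- cells (limma, adjusted p = 6.63e-06) and by 0.40 in p53+/+ cells (adjusted p = 1.86e-06). CCNE1, which codes cyclin E1, fell by 0.69 in p53-/- cells (limma, adjusted p = 1.89e-06), with -0.06 in p53+/+ cells (adjusted p = 0.452) and a difference of -0.64 (adjusted p = 0.000281). ERI1, an exonuclease of histone mRNA ends, fell by 0.61 in p53+/+ cells (limma, adjusted p = 1.16e-05), with -0.07 in p53-/- cells (adjusted p = 0.434). The difference for ERI1 was 0.54 (limma, adjusted p = 0.00161). LSM10 rose by 0.52 in p53+/+ cells (limma, adjusted p = 4.96e-05), with 0.10 in p53-/- cells (adjusted p = 0.238) and a difference of -0.42 (adjusted p = 0.00816). Between the SCR cells 11 of the 23 factors were higher and 3 lower in p53-/- cells, against 36.7% and 26.6% of all genes, with SRRT at 0.45 and UPF1 at 0.51 (limma, adjusted p = 9.1e-07 and 1.21e-06).

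Further measures moved beside the histone genes. The 29 listed S phase genes, such as MCM2 and RRM2, fell in 24 cases in p53-/- cells and in 29 of 29 in p53+/+ cells, against 29.9% and 32.2% of all genes tested. They summed to 977 ± 16 FPKM in p53-/- KD cells and 1402 ± 20 FPKM in p53-/- SCR cells, and to 573 ± 7.3 FPKM in p53+/+ KD cells and 1085 ± 35 FPKM in p53+/+ SCR cells (SD, n = 3 each). The variants thus moved in the direction of the S phase genes and the replication-dependent genes against it. Histone chaperones and exchange factors, 23 genes, fell in 10 and rose in 6 cases in p53-/- cells, where 29.9% of all genes fell and 28.9% rose. They fell in 14 and rose in 5 cases in p53+/+ cells, where 32.2% of all genes fell and 28.5% rose. RNAs that carry no poly(A) tail and should be lost on oligo(dT) beads were also followed. Of 31 such RNAs 9 were tested, and in each line 4 rose, 0 fell and 5 did not pass, where 28.9% of all genes rose in p53-/- cells and 28.5% in p53+/+ cells. The 4 were RN7SK, TERC, SNORD3A and SCARNA17. SCARNA17 reached 1 FPKM only in KD libraries, so the filter favoured a rise for it. Among those that did not pass in p53-/- cells, RMRP had a log2 fold change of -0.30 and SCARNA12 one of -0.23. The sum over all listed untailed RNAs was 313, 352 and 433 FPKM in p53-/- KD cells, against 169.5, 146 and 357 FPKM in p53-/- SCR cells, and 199, 408 and 170.3 FPKM in p53+/+ KD cells, against 410.0, 219.5 and 218 FPKM in p53+/+ SCR cells. KD and SCR libraries overlapped in both lines. Most of that sum was RN7SL1 and RN7SL2, which varied widely within groups. Without them the untailed RNAs summed to 48.9, 49.5 and 53.2 FPKM in p53-/- KD cells, against 27.9, 31.6 and 40.9 FPKM in p53-/- SCR cells, and to 60.1, 61.6 and 67.0 FPKM in p53+/+ KD cells, against 25.5, 24.1 and 25.0 FPKM in p53+/+ SCR cells. RN7SK, the largest of them, was at 22.1, 18.8 and 22.6 FPKM in p53-/- KD cells, against 5.40, 7.84 and 9.91 FPKM in p53-/- SCR cells, and at 22.4, 24.3 and 23.7 FPKM in p53+/+ KD cells, against 6.17, 5.47 and 8.67 FPKM in p53+/+ SCR cells. The share of mitochondrial genes in all FPKM was 15.07% to 15.75% in p53-/- KD cells and 10.9% to 11.96% in p53-/- SCR cells, and 19.3% to 21.01% in p53+/+ KD cells and 14.8% to 15.3% in p53+/+ SCR cells. With these genes left out and libraries rescaled, the replication-dependent sum was 2.04 times and the variant sum 0.811 times the SCR level in p53-/- cells, and 1.83 times and 0.717 times in p53+/+ cells.

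**Figure D5:**
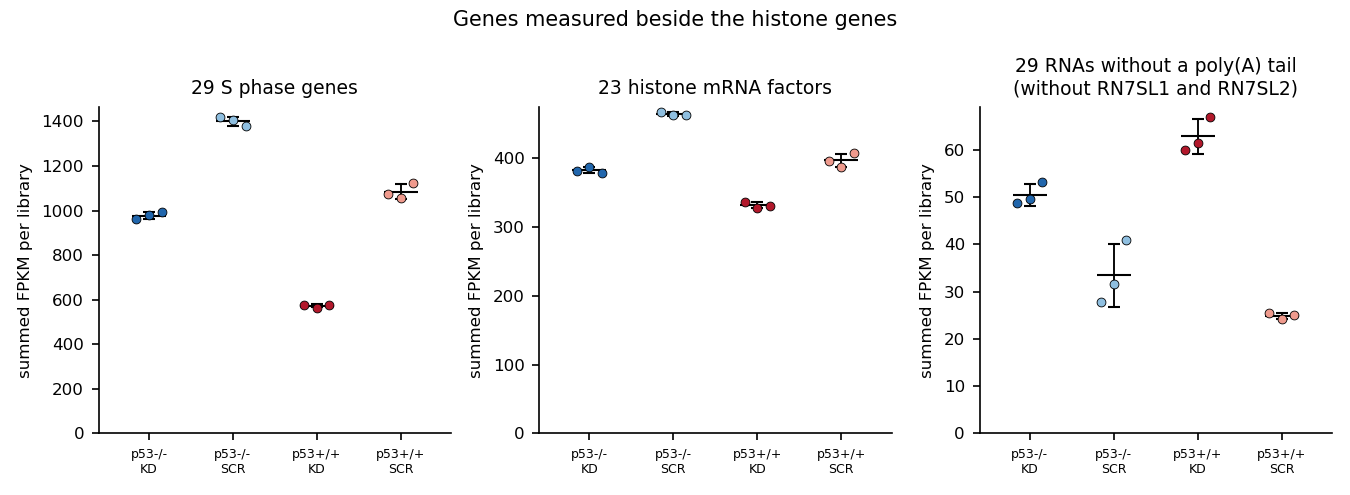
Summed FPKM (vertical axes, from 0) of S phase genes, histone mRNA factors and RNAs without a poly(A) tail, the last without RN7SL1 and RN7SL2, in each library, by group. Points are libraries, with the mean and SD of 3. The first and second sums are lower and the last sum is higher in KD than in SCR libraries of the same line.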

How the data were processed

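Poly(A) RNA of HCT116 cells was sequenced on an Illumina HiSeq after selection on oligo(dT) beads, per the labels' protocols and the series' design text. The authors deposited 1 table of symbols by 12 libraries. Its header names no unit. The deposited values were taken for FPKM computed by the authors, since they are not whole, do not sum to a common total, and neighbouring mitochondrial genes of different length have nearly equal values. Per the submitters' processing notes the genome build was hg19. Aligner, annotation, counting tool and strand setting: not given in the sources used here. How fragments of near-identical histone genes were assigned is likewise not given. Columns with the prefix KO were read as the p53-/- cells.

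From these values, limma 3.58.1 (R 4.3.3) was fitted to log2(FPKM + 1) with an intensity trend over 13728 genes with at least 1 FPKM in at least 3 libraries, with all 12 libraries in 1 model of 4 groups (8 residual degrees of freedom) and Benjamini-Hochberg adjustment over all genes tested in each of the 4 comparisons. The fit was tested on simulated data. Alternatives were a pseudocount of 0.1, no filter, fits of only the groups compared, median-ratio scaling, mitochondrial genes left out with rescaling, the replicate number as a block, and each library left out in turn. Classes and chromosomes came from RefSeq, transcript models from GENCODE v29 and promoters from RefSeq GRCh38.p14; 69 of the 70 genes matched the RefSeq table. Files and reference differ in build, so coordinates are those of the reference only.

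The histone genes and the gene lists were chosen with earlier results of these data known. Named genes are the 3 highest by mean FPKM of each class and family, the 5 largest rises and falls past the threshold in each comparison, RIOX2, the histone mRNA factors with the 4 smallest p per comparison, and the highest gene under the filter. Some genes that this rule names are not reported here, though counts and sums over the histone genes include them.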

Additional observations from a re-analysis of the deposited data

Results flagged for a closer look

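The change on depletion differed between p53-/- and p53+/+ cells, by the limma test of the difference itself (p53-/- minus p53+/+, log2 scale, adjusted p under 0.05), for 16 of the 34 histone genes tested, where 32.9% of all genes tested differed. Among replication-dependent genes the difference was 1.13 for H2BC17, 0.94 for H1-2, 0.77 for H4C12, 0.74 for H4C15, 0.70 for H2BC11, 0.68 for H2AC6, 0.62 for H3C6, 0.62 for H4C14 and -0.27 for H2BC12. H2BC17 passed the filter on low values only through p53-/- KD libraries, and H2BC11 only through KD libraries, so the values of these genes are a description. Among variants it included values of 0.52 for H1-10, 0.44 for H2AZ2, 0.39 for MACROH2A1, 0.20 for H2AZ1, 0.12 for H3-3A and 0.11 for H3-3B. H4C14 and H4C15 are near-identical copies and count as a single measurement. No cause of these differences was tested.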

How the results depend on the processing

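Counts of histone genes that rose or fell stayed within 1.5 times the reported counts under the alternatives run, except the count with a lower change in p53-/- than in p53+/+ cells. That count is 1 as reported and 3 on rescaling without the mitochondrial genes, which adds H2AC18 (-0.39, limma adjusted p = 0.0426) and H2AC19 (-0.40, adjusted p = 0.0475). It ranged from 1 to 3 when each library was left out, with 3 without replicate 1 of the p53+/+ SCR cells and 2 without replicate 3 of the p53-/- SCR cells. H3-3A in p53+/+ cells reversed, to 0.0147 (limma, adjusted p = 0.703), without mitochondrial genes, and its call was lost under 8 of 18 alternatives. In p53-/- cells H3-3A passed as higher without mitochondrial genes (0.0871, limma adjusted p = 0.0295). The differences between the lines of H3-3A and H3-3B lost their calls under 14 and 15 of 17 alternatives. The cause was not tested. H1-2 in p53+/+ cells passed under 4 of 18 alternatives, with adjusted p between 0.0145 and 0.0466, among them those without replicate 3 of the p53+/+ KD cells and without replicate 1 of the p53-/- SCR cells. H2BC11 in p53+/+ cells passed without replicate 2 of the p53+/+ KD cells (0.30, adjusted p = 0.0349). The difference of H4C12 lost its call with no filter (adjusted p = 0.0558), and that of H3C10 passed without replicate 3 of the p53-/- SCR cells (-0.61, adjusted p = 0.0288). Between the SCR cells H2BC17 passed as lower under 4 of 15 alternatives. Without mitochondrial genes the split of all genes moved to 4501 higher and 3563 lower for the p53-/- line (3968 and 4103 as reported), to 4956 and 3408 for the p53+/+ line (3916 and 4418), to 1832 and 2773 for the difference (2286 and 2225) and to 5297 and 3428 between the SCR cells (5045 and 3656). Of the 26 named histone genes, the number that kept direction and side of the threshold under all alternatives was 25 for the p53-/- line, 22 for the p53+/+ line, 20 for the difference and 23 between the SCR cells. The replicate numbers do not pair the libraries: 1 of 18 same-number correlations of deviations was over 0.1, with a range of -0.227 to 0.156. With the replicate block, 18 histone genes rose and 8 fell in the p53-/- line, 13 and 11 in the p53+/+ line, 13 and 1 for the difference, and 7 and 10 between the SCR cells. FPKM without counts leave the depth unknown, which limits most the 39 replication-dependent genes under 1 FPKM.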
